A study of Mus musculus with 21 samples.

Results

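Collagen genes were taken as every gene whose symbol in the array's annotation is Col, a type number, the letter a and a chain number and nothing more. The array held 36 such genes among 12393 genes with a probe set of a single symbol, and a gene with several probe sets was read on the brightest of them, by mean value. Total RNA from liver of male mice aged 9 months had been hybridised to Affymetrix-type oligonucleotide arrays, and the deposited values are log2 signals processed with GCRMA. KO mice lack Mdr2 (now Abcb4), the canalicular transporter that moves phospholipid into bile, and were of strain FVB129P2, whereas control mice were FVB129P2/FVBNJ, so genotype and strain background cannot be told apart. All mice had a 30% partial hepatectomy. The groups were KO on day 0 (6 mice), control on day 0 (3 mice), KO on day 2 (3 mice), control on day 2 (3 mice), KO on day 6 (3 mice) and control on day 6 (3 mice). The day 0 sample is the lobe removed at surgery, and mice sampled on day 0 were sampled again on day 2 or day 6.

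Collagens are triple helices of 3 chains that are secreted and assembled outside the cell, and they are sorted into classes by the structures they build. Fibrillar collagens of types I, III and V form the bands of scar tissue, type IV forms the sheet of basement membranes, and type VI forms beaded filaments around cells. Smaller classes sit on fibril surfaces (FACIT), span the cell membrane or release fragments near basement membranes (multiplexins). In a healthy liver the mesenchymal cells, chiefly stellate cells and portal fibroblasts, make most fibrillar collagen. Loss of biliary phospholipid in Mdr2-deficient mice is known to injure bile ducts and to lead to periductal fibrosis. In a bulk sample, more collagen-producing cells and more RNA per cell cannot be told apart.

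Of the 36 collagen genes, 15 exceeded log2 4 on 3 or more arrays and were tested. These were 6 of 9 fibrillar genes (Col1a1, Col1a2, Col3a1, Col5a1, Col5a2, Col5a3), 3 of 6 basement membrane genes (Col4a1, Col4a2, Col4a5), all 3 type VI genes (Col6a1, Col6a2, Col6a3), 1 of 9 FACIT genes (Col14a1), 1 of 3 transmembrane genes (Col13a1) and 1 of 2 multiplexin genes (Col18a1). Values of the 21 untested genes lay between 1.99 and 5.30, and 20 of them were at or under 4 on all 21 arrays. They were Col2a1, Col11a1, Col11a2, Col4a3, Col4a4, Col4a6, the anchoring fibril gene Col7a1, the short-chain genes Col8a1 and Col10a1, the FACIT genes Col9a1, Col9a2, Col9a3, Col12a1, Col16a1, Col19a1, Col20a1 and Col22a1, and Col17a1, Col25a1, Col15a1 and Col26a1. A gene at or under 4 in every array of a group was taken as near background there. A fold given as at least a value is the bound with readings under 4 set to 4, and the fitted log2 difference against such a group is not a bound. A gene whose control values are near background enters the tested set through the KO arrays alone, so counts over the 15 genes describe them and are no support for a difference.

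**Figure D1:**
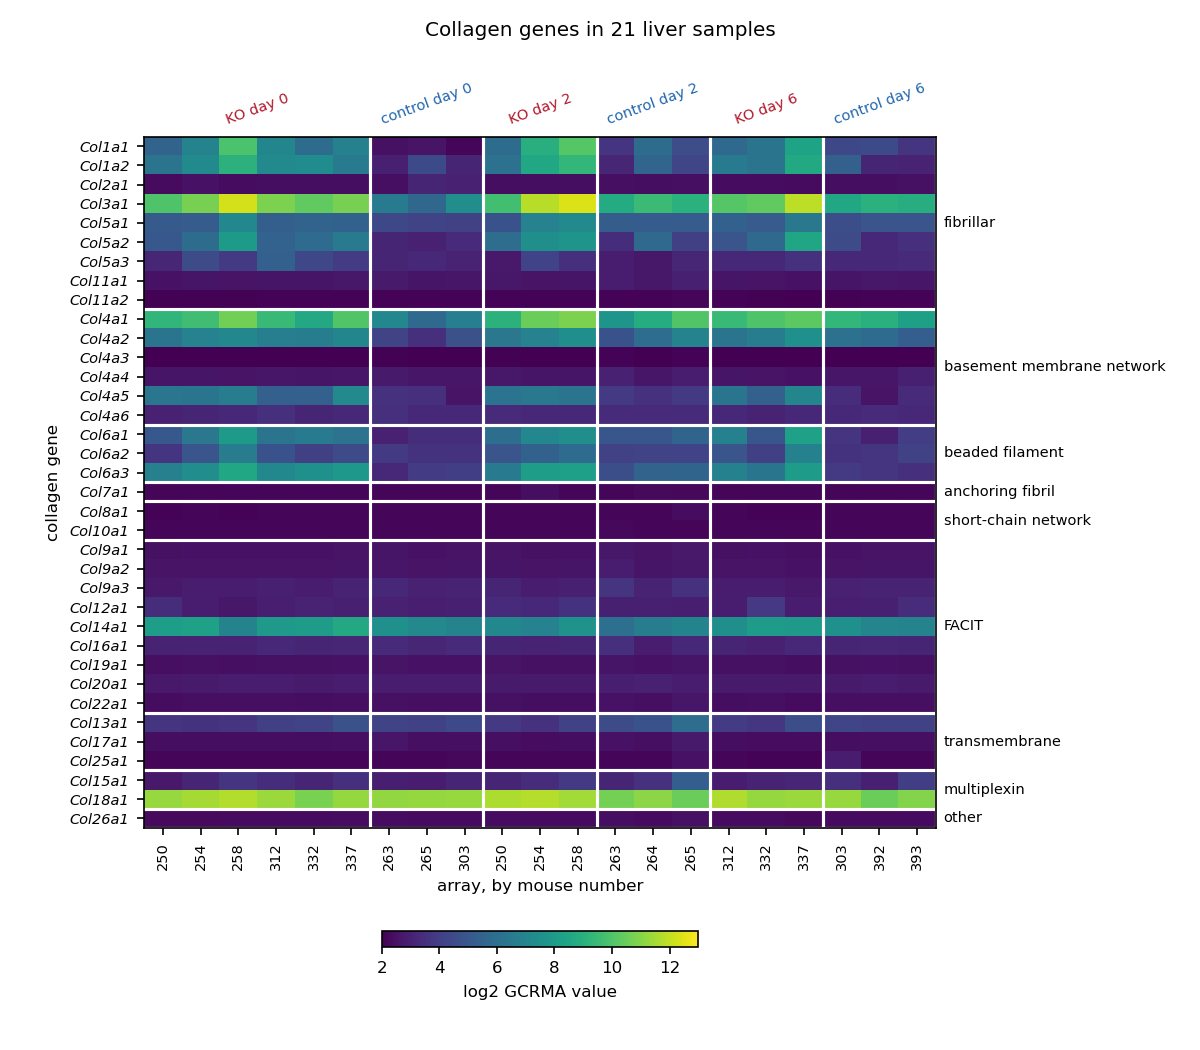
Deposited log2 values of the 36 collagen genes (rows, by class) on the 21 arrays (columns, by group and mouse number), with colour from dark (low) to yellow (high). Colours are read along a row, since levels of different probe sets cannot be set against each other. The fibrillar, basement membrane and type VI rows that passed the filter are brighter in the KO columns of day 0, and the 20 rows at or under 4 throughout stay dark in all groups.

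The targeted gene followed the labels, with Abcb4 between 7.25 and 8.96 in 12 KO arrays and between 9.23 and 10.33 in 9 control arrays. Hepatocyte genes averaged 14.2 to 14.7 on every array. Gapdh read more than 1 log2 unit higher at its 3′ end than at its 5′ end, a sign of shortened RNA, on 3 arrays: 9.50 in control mouse 265 on day 2, 2.03 in KO mouse 337 on day 0 and 1.58 in control mouse 263 on day 2. Calls that were lost without these 3 arrays are named beside the results. For actin the same difference ran from 1.01 in KO mouse 337 on day 6 to 5.92 in control mouse 265 on day 2. The day 6 array of control mouse 303 lay just under the cut, with 0.94 for Gapdh and 2.72 for actin.

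On day 0, before any regeneration, 9 of the 15 tested collagen genes were higher in KO livers and 0 were lower, against 6.79% of all 7320 tested genes higher and 2.87% lower. The 9 were 4 fibrillar genes, 3 basement membrane genes and 2 type VI genes. Groups did not overlap in 10 of the 15, all with KO higher (11.6% of all tested genes). Calls are limma tests at a Benjamini-Hochberg adjusted p of 0.05 over all tested genes. Values on day 0 follow as the lowest, median and highest of 6 KO mice and as each of 3 control mice (263, 265 and 303).

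Col1a1 and Col1a2 encode the 2 chains of type I collagen, the main fibre of scar tissue. Col1a1 ranged from 5.51 through 6.87 to 9.90 in KO livers, against 2.51, 2.60 and 2.17 in control livers. The KO minus control difference was 4.59 ± 0.89 (SE, limma adjusted p = 0.00214), and with the control values near background KO was at least 8.06-fold higher. Col1a2 ranged from 6.24 through 7.21 to 9.05 in KO livers, against 2.95, 4.48 and 3.15 in control livers. The lowest KO value of Col1a2 lay above the highest control value, and the difference was 3.74 ± 0.77 (SE, limma adjusted p = 0.00379).

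Col3a1, whose protein forms fibrils together with type I collagen, ranged from 9.96 through 10.74 to 12.27 in KO livers, against 6.54, 5.71 and 7.43 in control livers. All 9 of these values were well above background, and the log2 difference was 4.25 ± 0.56 (SE, limma adjusted p = 5.61e-05). Type V collagen is a minor fibrillar type that sits inside type I fibrils and limits their width. Its chain gene Col5a2 ranged from 5.04 through 5.87 to 8.01 in KO livers, against 3.12, 2.99 and 3.32 in control livers. Here KO was at least 4.39-fold higher (log2 difference 2.99 ± 0.71, SE, limma adjusted p = 0.0110), a call that was lost without control mouse 265 (limma adjusted p = 0.0565). The other type V chains did not pass the test. Col5a1 was 1.36 ± 0.46 log2 units apart (SE, limma adjusted p = 0.0713) although all KO values, 5.12 to 7.15, lay above all control values, 4.12 to 4.40. Col5a3 gave a difference of 1.07 ± 0.35 (SE, limma adjusted p = 0.0583), with KO values from 3.19 to 5.38 and control values of 3.06 to 3.21, and of 0.39 with readings under 4 set to 4.

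Among the basement membrane genes, Col4a1 and Col4a2 encode the chains of the type IV collagen found in most basement membranes. Col4a1 ranged from 8.65 through 9.52 to 10.64 in KO livers, against 7.15, 5.77 and 6.70 in control livers. Col4a2 ranged from 6.22 through 6.80 to 7.12 in KO livers, against 4.26, 3.49 and 4.72 in control livers. In both genes the groups did not overlap, and KO was 8.32-fold higher for Col4a1 (limma adjusted p = 0.000481) and 6.14-fold higher for Col4a2 (limma adjusted p = 0.000246). Col4a5 encodes a chain of the basement membrane in the kidney glomerulus and some epithelia. It ranged from 5.37 through 6.30 to 7.27 in KO livers, against 3.55, 3.49 and 2.60 in control livers, so KO was at least 4.61-fold higher (limma adjusted p = 4.89e-05). Col4a3, Col4a4 and Col4a6, the remaining type IV genes, stayed near background in all 21 arrays, with a highest value of 3.50.

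The type IV genes lie in head-to-head pairs, and promoter windows of 250 bases before to 50 after the annotated start (RefSeq, mouse build GRCm38.p6) are shown because 1 such pair moved together on day 0 and another did not. The starts of Col4a1 (minus strand) and Col4a2 (plus strand) lie 21 bases apart on chromosome 8, with their 5′ ends overlapping, and their windows share 78 bases. Those of Col4a6 (minus strand) and Col4a5 (plus strand) lie 1343 bases apart on the X chromosome. Each window is printed 5′ to 3′ on the strand of its gene, with capitals for matches on either strand to any of 4 motifs. The TATA box was searched as TATAAA and the CCAAT box by the letters of its name. The GC box was searched as GGGCGG and the SMAD element as CAGAC, and matches of different motifs in the printed windows did not overlap. The windows are chr8:11312777-11313076 for Col4a1, chr8:11312555-11312854 for Col4a2, chrX:141475169-141475468 for Col4a5 and chrX:141474027-141474326 for Col4a6.
Col4a1: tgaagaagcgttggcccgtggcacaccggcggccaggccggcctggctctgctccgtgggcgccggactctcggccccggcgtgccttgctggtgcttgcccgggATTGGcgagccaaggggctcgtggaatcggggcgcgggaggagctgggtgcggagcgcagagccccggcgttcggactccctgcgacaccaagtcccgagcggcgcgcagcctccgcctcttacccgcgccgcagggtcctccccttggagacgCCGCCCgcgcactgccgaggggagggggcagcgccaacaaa
Col4a2: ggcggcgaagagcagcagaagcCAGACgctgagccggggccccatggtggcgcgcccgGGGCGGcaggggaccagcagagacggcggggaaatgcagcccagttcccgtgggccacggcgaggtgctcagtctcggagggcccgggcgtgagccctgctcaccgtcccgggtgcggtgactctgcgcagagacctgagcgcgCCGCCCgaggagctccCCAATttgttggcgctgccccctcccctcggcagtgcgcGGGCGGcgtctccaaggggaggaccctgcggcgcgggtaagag
Col4a5: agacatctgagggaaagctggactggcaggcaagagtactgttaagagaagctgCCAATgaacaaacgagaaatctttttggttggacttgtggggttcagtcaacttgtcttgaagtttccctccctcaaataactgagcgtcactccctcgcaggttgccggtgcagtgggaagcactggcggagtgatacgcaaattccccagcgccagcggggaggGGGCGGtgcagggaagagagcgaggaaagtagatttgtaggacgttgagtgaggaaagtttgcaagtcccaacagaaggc
Col4a6: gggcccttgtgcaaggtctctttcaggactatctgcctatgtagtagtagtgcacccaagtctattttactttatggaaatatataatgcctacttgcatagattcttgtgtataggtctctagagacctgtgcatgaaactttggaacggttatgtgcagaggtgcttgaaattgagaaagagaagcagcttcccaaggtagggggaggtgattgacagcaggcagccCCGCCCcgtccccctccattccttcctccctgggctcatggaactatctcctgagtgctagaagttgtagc
The GC box nearest the start is the same stretch of DNA in the windows of Col4a1 and Col4a2, read from opposite strands. Each of these 4 windows holds at least 1 GC box, which 35.7% of 32851 promoter windows hold, and all but that of Col4a6 hold a CCAAT box (37.4% of windows). Windows were at hand for 27 of the 36 collagen genes, 30 windows in all, of which 17 held a GC box, 12 a CCAAT box, 17 a SMAD element (49.6% of all windows) and 5 a TATA box (13.6%). A match to such letters is a description of the window and not a binding site.

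Type VI collagen is built from 3 different chains. Col6a3 ranged from 6.79 through 7.46 to 8.58 in KO livers, against 3.23, 3.91 and 4.03 in control livers, a log2 difference of 3.83 ± 0.43 (SE, limma adjusted p = 1.12e-05). Col6a1 ranged from 5.04 through 6.31 to 7.99 in KO livers, against 3.01, 3.42 and 3.42 in control livers, so KO was at least 5.30-fold higher (limma adjusted p = 0.00168). The groups did not overlap for either gene. For Col6a2, KO values of 3.67 to 6.60 overlapped control values of 3.62 to 3.89, and the probe set that stood for it did not pass (difference 1.06 ± 0.52, SE, limma adjusted p = 0.245). Its second probe set passed, with a difference of 2.06 ± 0.58 (SE, limma adjusted p = 0.0360 over all probe sets). KO values there were 3.50 to 6.11. Control values of 2.25 to 3.18 were near background, so that difference is not a bound.

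The tested genes of the remaining classes gave differences under 1 on day 0. Col14a1, a FACIT collagen of fibril surfaces, was 0.80 ± 0.30 apart (SE, limma adjusted p = 0.112). KO mouse 258 stood lowest at 6.90 while the other 5 KO mice lay between 7.90 and 8.62 and control mice between 6.90 and 7.50, and without that mouse the difference of 1.01 passed the test (limma adjusted p = 0.0147). Col13a1, a transmembrane collagen of cell contacts, and Col18a1, the multiplexin whose fragment endostatin inhibits vessel growth, differed by -0.27 ± 0.29 and 0.08 ± 0.20 (SE). Col18a1 lay between 10.80 and 11.73 in KO livers and between 11.20 and 11.30 in control livers, so its groups overlapped, and the sign of its difference turned under other settings. The median difference was 2.99 over the 15 tested collagen genes, -0.02 over all 36 and 0.02 over all 7320 tested genes. Without a filter on low values 9 of the 36 genes were higher (3.3% of all 12393 genes were) and 1 was lower (1.66% were). The lower one was Col2a1, the cartilage collagen, at 2.33 to 2.53 in KO livers and 2.43, 3.12 and 3.03 in control livers, all near background (difference -0.45, limma adjusted p = 0.0132).

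**Figure D2:**
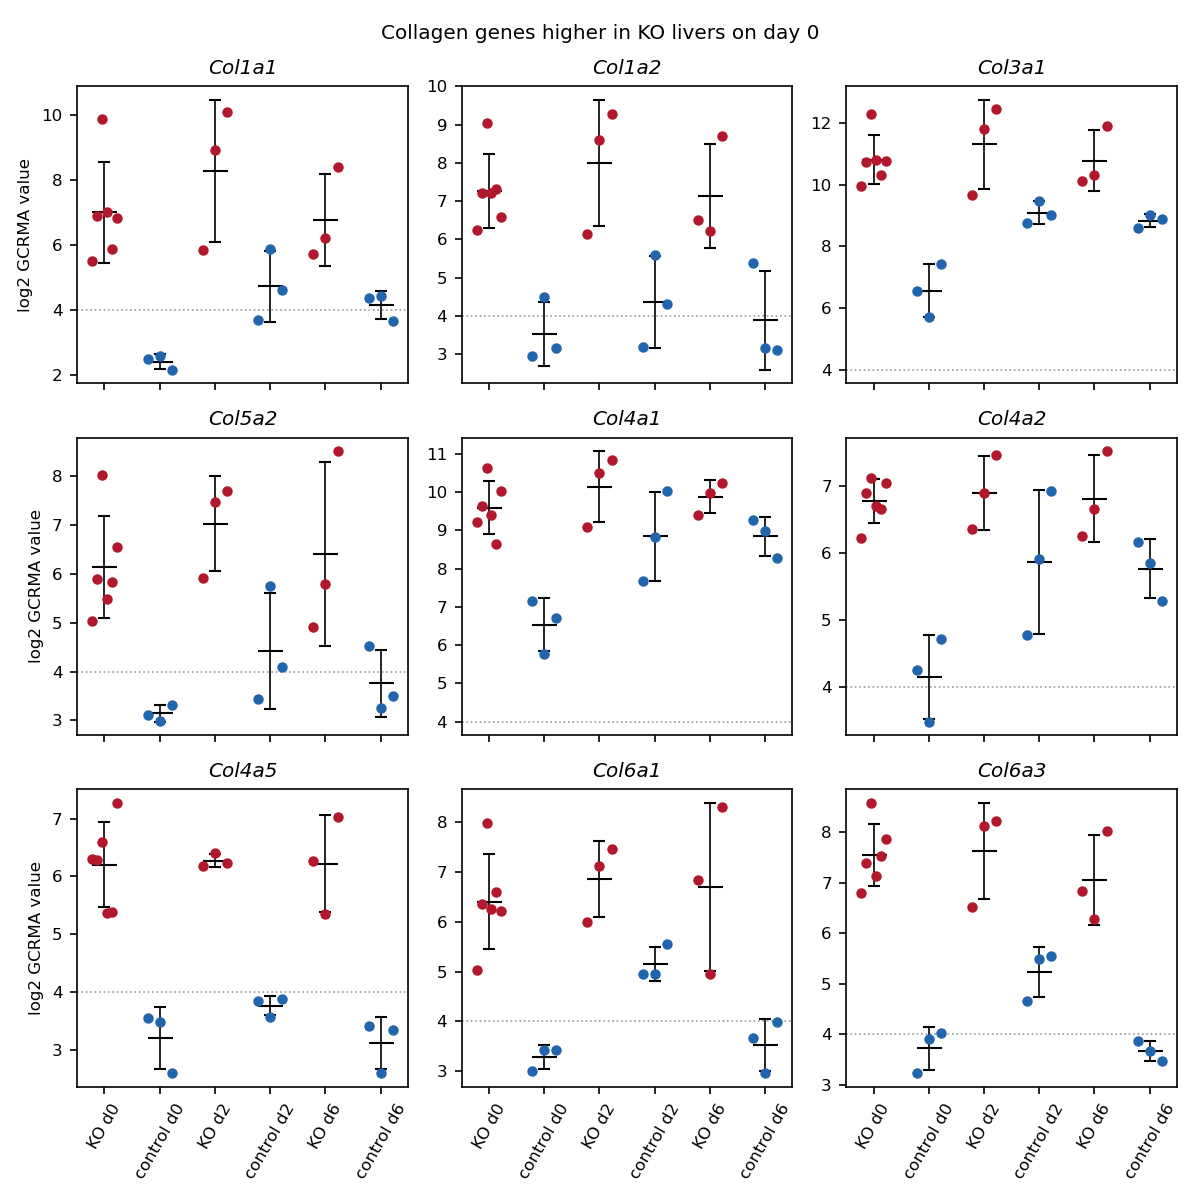
Log2 GCRMA values of the 9 collagen genes higher in KO livers on day 0, with 1 dot per array (KO red, control blue), bars for the group mean ± SD and a dotted line at log2 4. On day 0 the dots of KO and control do not overlap in any of the 9 panels, and on day 2 a control dot reaches into the KO range for Col1a1, Col4a1 and Col4a2. For Col4a1 and Col4a2 that dot is control mouse 265, whose day 2 array had the Gapdh difference of 9.50.

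Several of these genes have a second probe set that read lower and gave a smaller difference on day 0. The second probe set averaged 3.52 ± 0.99 in KO livers and 2.53 ± 0.11 in control livers for Col1a1 (SD, n = 6 and 3), a difference of 0.99 (limma adjusted p = 0.321 over all probe sets). That of Col3a1 gave 1.60 (limma adjusted p = 0.213) and that of Col1a2 gave 2.76 (limma adjusted p = 0.0650), while that of Col4a1 passed with 2.47 (limma adjusted p = 0.00464). The second probe sets of Col4a5 and Col5a2 were near background, at 2.83 ± 0.37 in KO livers and 2.56 ± 0.02 in control livers for Col4a5 and 2.78 ± 0.47 in KO livers and 2.36 ± 0.05 in control livers for Col5a2 (SD, n = 6 and 3). The calls for Col1a1, Col1a2, Col3a1, Col4a5 and Col5a2 thus rest on 1 probe set each. So do those for Col4a2, Col6a1 and Col6a3, which had only 1 probe set. With the mean of both probe sets the call of Col5a2 was lost on day 0 (1.71, limma adjusted p = 0.0586) and that of Col1a1 on day 2 (2.38, limma adjusted p = 0.0815).

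KO livers on day 0 differed among themselves in a shared order. Mouse 258 was highest of the 6 in 8 of the 9 called genes, and mouse 250 was lowest in 7 of 9. Day 0 standard deviations ran from 0.33 to 1.54 in KO livers, against 0.17 to 0.86 in control livers. KO had the larger one in 6 of 9 genes. Control values of those genes were at or under 4 apart from 4.48 in Col1a2 and 4.03 in Col6a3. Control had the larger one in Col3a1 (0.86 against 0.79), Col4a1 (0.70 against 0.69) and Col4a2 (0.62 against 0.33). Spread near background cannot be set against spread above it. On day 2 mouse 250 was again lowest of 3 in all 9 genes and mouse 258 highest in 8. On day 6 mouse 337 was the highest of 3 in all 9, although on day 0 it lay below mouse 312 in Col1a1 and Col3a1 and below both mice 312 and 332 in Col1a2 and Col6a1. The day 0 array of mouse 337 had the Gapdh difference of 2.03.

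Markers of collagen-producing and neighbouring cells moved in part with these results. Mean log2 values of the stellate cell list (11 of 12 genes on the array) were 4.46 to 4.60 in KO livers on day 0 and 4.09 to 4.24 in control livers, with Lrat, Des, Hand2, Lhx2 and Vipr1 near background throughout. The myofibroblast list (6 of 6) gave 3.74 to 4.19 in KO livers and 3.59 to 3.74 in control livers, with Myl9, Cnn1 and Actg2 near background. Portal fibroblast genes (8 of 8) gave 2.80 to 3.39 in KO livers and 2.55 to 2.62 in control livers, with Thy1, Eln, Gli1, Mfap4 and Clec3b near background. Single genes moved most in these lists: Pdgfrb in the stellate list was 7.53 to 9.09 in KO livers and 4.78 to 5.96 in control livers, and Entpd2, the only portal fibroblast gene past the filter, 6.36 to 7.41 in KO livers and 4.47 to 4.99 in control livers. Reln, Rgs5, Ngfr and Hgf of the stellate list overlapped between the groups, as did Acta2 and Tpm2 of the myofibroblast list. Tagln did not (5.36 to 6.57 and 4.03 to 4.85). Nes, at or under 4 in both groups, was 2.66 to 2.84 in KO livers and 2.84 to 3.51 in control livers. The endothelium list gave 4.43 to 5.275 in KO livers and 4.81 to 4.955 in control livers. Macrophage genes gave 6.685 to 7.21 and 6.31 to 7.12 in that order. Both overlapped, as did the mesothelium and cholangiocyte lists. Mouse 258, the highest in collagen, was highest of the KO mice on day 0 in the myofibroblast, portal fibroblast, mesothelium (3.82) and cholangiocyte (4.15) lists. In the stellate cell list it gave 4.50, within the range of the other 5 mice, and in the endothelium list 4.43, the lowest of the 6. All 4 smooth muscle genes were near background. The part of these cells in the collagen differences was not tested.

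On day 2 after resection, 5 of the 15 tested collagen genes were higher in KO livers (2.75% of all tested genes were) and 1 was lower (2.96% were). Those higher were Col1a1, Col1a2, Col4a5, Col6a3 and Col18a1, and Col13a1 was lower. Values are given in the order of mice 250, 254 and 258 for KO and 263, 264 and 265 for control.

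Col4a5 had 6.18, 6.40 and 6.24 in KO livers, against 3.85, 3.58 and 3.88 in control livers, and KO was at least 4.83-fold higher (limma adjusted p = 0.00485). Col6a3 had 6.53, 8.13 and 8.22 in KO livers, against 4.66, 5.49 and 5.55 in control livers, a difference of 2.39 ± 0.49 (SE, limma adjusted p = 0.0114). Both were among the 8 of 15 tested genes whose KO values all lay above the control values (8.28% of all tested genes). Col6a3 lost its call without KO mouse 254 (limma adjusted p = 0.0687) or 258 (limma adjusted p = 0.0577).

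Both type I genes were higher in KO mice 254 and 258 than in any control mouse. Col1a1 had 5.87, 8.93 and 10.10 in KO livers, against 3.70, 5.89 and 4.62 in control livers, and the lowest KO value lay just under the highest control value. The difference was 3.56 ± 1.02 (SE, limma adjusted p = 0.0479), and it lost its call in 16 of the 21 fits that left out 1 array, with an adjusted p of up to 0.193 without KO mouse 258. Col1a2 had 6.14, 8.60 and 9.28 in KO livers, against 3.17, 5.58 and 4.31 in control livers, a difference of 3.65 ± 0.89 (SE, limma adjusted p = 0.0257). Without KO mouse 254 or 258 or control mouse 263 or 265 the limma adjusted p of Col1a2 was 0.110, 0.107, 0.0733 and 0.0578 in that order.

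Col18a1 had 11.64, 11.79 and 11.46 in KO livers, against 10.68, 11.10 and 10.51 in control livers, a difference of 0.87 ± 0.23 (SE, limma adjusted p = 0.0368). Its other probe set gave a difference of -0.01 ± 0.25 (SE, limma adjusted p = 0.986 over all probe sets), so the 2 probe sets of this gene disagreed. Col13a1 had 3.84, 3.55 and 4.11 in KO livers, against 4.53, 4.79 and 5.95 in control livers, a difference of -1.26 ± 0.34 (SE, limma adjusted p = 0.0367). The value of 5.95 came from control mouse 265, whose array had the Gapdh difference of 9.50, and without that array the difference was -0.83 (limma adjusted p = 0.132). The calls for Col13a1 and Col18a1 were each also lost without any 1 of the 3 KO mice, and that for Col18a1 without control mouse 263 or 265.

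Col3a1 just missed the test on day 2, with 9.67, 11.80 and 12.44 in KO livers, against 8.75, 9.48 and 9.02 in control livers (difference 2.22 ± 0.65, SE, limma adjusted p = 0.0513). Without KO mouse 250 it passed with a difference of 3.04 (limma adjusted p = 0.0104). Col4a1 and Col4a2 overlapped between the genotypes, with differences of 1.30 ± 0.58 and 1.03 ± 0.46 (SE). The overlap came from control mouse 265 alone (10.02 and 6.92), whose array had the Gapdh difference of 9.50. The other control values, 7.69 and 8.82 for Col4a1 and 4.78 and 5.92 for Col4a2, lay under all KO values. Without that array the differences were 1.885 and 1.55, and neither passed the test. Leaving out the 3 arrays with a high Gapdh difference left 1 control array on day 2, which was then taken to vary like the other groups, and 0 collagen genes were called. Over those arrays Col4a5 had a difference of 2.69 (limma adjusted p = 0.0630) and Col6a3 one of 2.14 (limma adjusted p = 0.242).

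On day 6, 3 collagen genes were higher in KO livers (1.24% of all tested genes were) and 0 were lower (0.492% were). They were Col4a5, Col6a1 and Col6a3, and all 3 had control values at or under 4 on every array. Values follow for mice 312, 332 and 337 of KO and 303, 392 and 393 of control. Col6a3 had 6.84, 6.29 and 8.03 in KO livers, against 3.86, 3.68 and 3.47 in control livers, at least 8.30-fold higher (limma adjusted p = 0.000610). Col4a5 had 6.27, 5.36 and 7.03 in KO livers, against 3.41, 2.60 and 3.35 in control livers, at least 4.66-fold higher (limma adjusted p = 0.000610). Both were called in all 21 fits that left out 1 array, and a fit of only the day 6 groups ended the call of Col4a5 (limma adjusted p = 0.0537). Col6a1 had 6.84, 4.95 and 8.31 in KO livers, against 3.67, 2.96 and 3.98 in control livers, at least 6.50-fold higher (limma adjusted p = 0.0185). Its call was lost without KO mouse 312 (limma adjusted p = 0.0714), KO mouse 337 (0.123) or control mouse 392 (0.0790).

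The fibrillar genes did not pass on day 6 although 5 of the 6 had non-overlapping groups, as 8.63% of all tested genes did in that direction. Col1a2 gave 3.26 ± 0.89, Col5a2 2.63 ± 0.82, Col1a1 2.63 ± 1.02 and Col3a1 1.94 ± 0.65 (SE), with limma adjusted p values of 0.0774, 0.133, 0.263 and 0.167 in that order. Control mouse 303 had the highest control value of Col1a2, 5.37, and without it the difference of 4.01 passed (limma adjusted p = 0.0307). KO mouse 337 stood highest in Col1a1 (8.40), Col1a2 (8.70), Col3a1 (11.91) and Col5a2 (8.50). Its mesothelium list averaged 5.73, against 2.82 to 4.21 in the other KO mice of that day, with Msln at 7 and Gpm6a at 6.67. The same mouse was also highest in the stellate cell (4.76), myofibroblast (4.40), portal fibroblast (3.55) and cholangiocyte (3.72) lists. It was lowest in the macrophage list (6.32). On day 2 KO mouse 250, lowest in all 9 genes called on day 0, had the highest mesothelium mean, 4.17. Mesothelial cells cover the liver surface, and the part of all these cells in the collagen values was not tested.

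**Figure D3:**
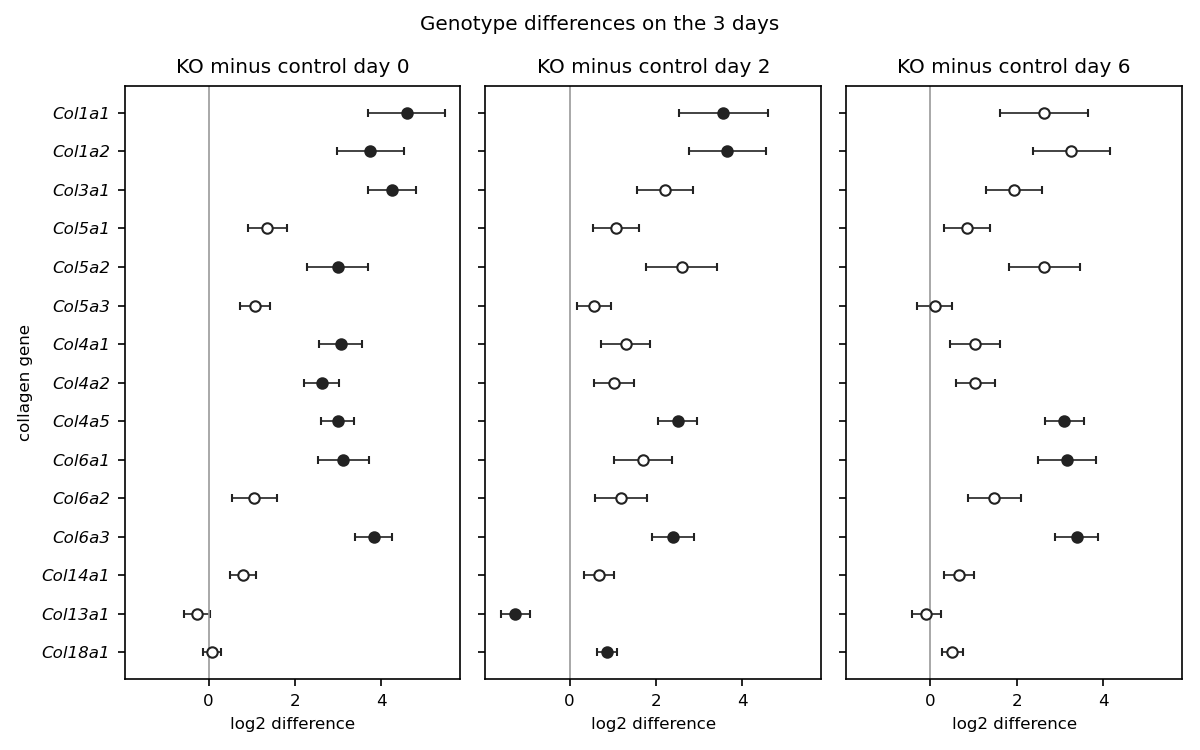
KO minus control differences (log2, points) with their standard errors (bars) for the 15 tested collagen genes on days 0, 2 and 6, with filled points for genes past the test and open points for the others. Of the 9 genes filled on day 0, those of Col4a5 and Col6a3 are filled on all 3 days.

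Of the 9 genes called on day 0, the KO minus control difference was smaller on day 2 than on day 0 in 9 and smaller on day 6 in 7. Because these genes were picked by their day 0 difference, a smaller one on other days carries no weight by itself. The difference between the genotypes in their response was tested for all genes, but it holds the same day 0 values. No collagen gene passed for day 2 (0% of all tested genes did in either direction) or for day 6 (0.0137% higher and 0.15% lower). An unadjusted p under 0.05 was reached by 6 of 15 collagen genes for the day 2 response (1070 of 7320 genes) and by 3 of 15 for the day 6 response (392 of 7320). Col4a2 had an interaction of -1.59 ± 0.61 on day 2 and -1.58 ± 0.61 on day 6, Col4a1 of -1.76 ± 0.76 and -2.02 ± 0.76, and Col3a1 of -2.03 ± 0.86 and -2.30 ± 0.86 (log2, SE). Limma adjusted p values of these 6 interactions lay between 0.248 and 0.671. These genes were among those picked on day 0, so the negative signs carry no weight by themselves.

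Within control livers, 3 of the 15 genes were higher on day 2 than on day 0 (5.23% of all tested genes were) and 0 were lower (4.28% were). They were Col3a1 and the paired type IV genes Col4a1 and Col4a2. Values follow for mice 263, 265 and 303 on day 0, 263, 264 and 265 on day 2 and 303, 392 and 393 on day 6. Col3a1 had 6.54, 5.71 and 7.43 on day 0, 8.75, 9.48 and 9.02 on day 2 and 8.60, 9.01 and 8.87 on day 6. The day 2 minus day 0 difference of Col3a1 was 2.52 ± 0.65 (SE, limma adjusted p = 0.0224). The second probe set of Col3a1 averaged 3.49, 3.89 and 3.64 on days 0, 2 and 6, with overlapping values. Its day 2 difference was 0.40 (limma adjusted p = 0.786 over all probe sets). With the mean of both probe sets the day 2 call of Col3a1 was lost (limma adjusted p = 0.202). Col4a1 had 7.15, 5.77 and 6.70 on day 0, 7.69, 8.82 and 10.02 on day 2 and 9.27, 8.99 and 8.27 on day 6. Col4a2 had 4.26, 3.49 and 4.72 on day 0, 4.78, 5.92 and 6.92 on day 2 and 6.16, 5.85 and 5.29 on day 6. The day 2 differences were 2.30 ± 0.58 for Col4a1 (SE, limma adjusted p = 0.0205) and 1.72 ± 0.46 for Col4a2 (SE, limma adjusted p = 0.0276).

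On day 6, 1 gene was higher than on day 0 in control livers (2.12% of all tested genes were) and 0 were lower (0.738% were). This was Col4a1, with a difference of 2.30 ± 0.58 (SE, limma adjusted p = 0.0368). Col3a1 and Col4a2 gave 2.27 ± 0.65 and 1.61 ± 0.46 on day 6 (SE, limma adjusted p = 0.0674 and 0.0671). Type VI genes were above their day 0 values on day 2 without passing the test, by 1.87 ± 0.68 for Col6a1 (limma adjusted p = 0.0861) and 1.51 ± 0.49 for Col6a3 (limma adjusted p = 0.0595). Col6a1 was back at 3.67, 2.96 and 3.98 on day 6.

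These control results rest on few arrays and on arrays with signs of shortened RNA. Without the 3 arrays of high Gapdh difference the day 2 differences were 2.92, 2.28 and 1.76 for Col3a1, Col4a1 and Col4a2 with 1 control array on day 2, and 0 genes were called. With the mouse as a fixed block, which leaves mice 263 and 265 as pairs on day 2, the differences were 2.76, 2.40 and 1.98 and 0 were called on day 2. On day 6 the block leaves mouse 303 as the only pair, and again 0 genes were called. Single arrays mattered too: without control mouse 265 on day 0, day 2 calls of Col3a1, Col4a1 and Col4a2 were lost (limma adjusted p = 0.107, 0.0975 and 0.127), as they were without its day 2 array (0.0663, 0.106 and 0.141). Col3a1 and Col4a2 were also lost without control mouse 263 on day 0 (0.0572 and 0.0582), and Col4a1 without control mouse 303 on day 0 (0.0566). On day 6 the call of Col4a1 was lost without any 1 of the 3 day 0 mice, mouse 303 or mouse 392 (0.0501 to 0.185). It was lost on its second probe set too (limma adjusted p = 0.219 over all probe sets).

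Some markers of other cells also moved after resection in control livers. The stellate cell, myofibroblast, portal fibroblast and endothelium lists overlapped with day 0 on both later days. On day 2 the arrays of mice 263 and 265 had Gapdh differences of 1.58 and 9.50. The mesothelium list averaged 2.74 to 2.91 on day 0, 3.68 to 3.96 on day 2 and 3.12 to 3.38 on day 6. The cholangiocyte list averaged 2.93 to 3.02 on day 0, 3.51 to 3.59 on day 2 and 2.99 to 3.08 on day 6, with Cldn4 and Cldn7 near background throughout. Pdgfrb was 4.78 to 5.96 on day 0, 6.31 to 7.52 on day 2 and 5.63 to 6.55 on day 6. Of the other stellate genes past the filter, Rgs5 was 8.32 to 9.01 on day 0 and 9.14 to 9.63 on day 2. Reln, Ngfr and Hgf overlapped between these days. Macrophage genes averaged 6.31 to 7.12 on day 0, 6.51 to 8.07 on day 2 and 6.92 to 9.96 on day 6, and among them Marco was 2.42 to 2.88 on day 0, 2.45 to 9.67 on day 2 and 6.56 to 10.83 on day 6. Their part in the control values was not tested.

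Within KO livers no collagen gene passed the test on day 2 or day 6 against day 0. An unadjusted p under 0.05 was reached by 2 of 15 collagen genes on day 2 (439 of 7320 genes) and by 1 of 15 on day 6 (398 of 7320), while 0% of all tested genes were called higher or lower on day 2, and 0.137% higher and 0% lower on day 6. Over the 9 genes called between the genotypes on day 0, the KO day 2 minus day 0 differences lay between 0.07 and 1.29 and those of day 6 between -0.50 and 0.29. Mice differed in direction. Of the 9 genes, KO mouse 254 had 8 higher and 0 lower on day 2, and KO mouse 337 had 8 higher and 1 lower on day 6. The day 0 array of mouse 337 had the Gapdh difference of 2.03. KO mouse 250 had 4 higher and 5 lower on day 2, 258 had 5 and 4, and on day 6 mouse 312 had 2 higher and 7 lower and mouse 332 had 2 and 6. The 3 control mice with paired samples had 9, 8 and 8 of the 9 genes higher on the later day. Among them, the later arrays of mice 263 and 265 had Gapdh differences of 1.58 and 9.50. The 9 genes were picked for low control and high KO values on the same day 0 arrays. These counts therefore carry no weight as a difference between the genotypes. Values of Col4a5 in the paired control mice lay under 4 on both days. So did those of Col1a1, Col1a2 and Col5a2 in mouse 263 and of Col6a1 in mouse 303.

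**Figure D4:**
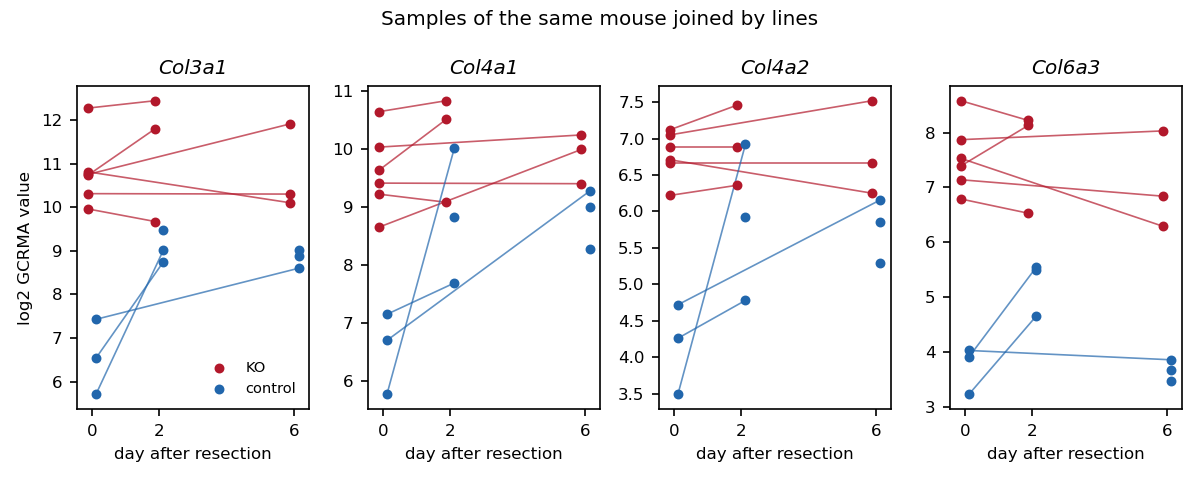
Log2 GCRMA values of Col3a1, Col4a1, Col4a2 and Col6a3 by day after resection, with samples of the same mouse joined by a line (KO red, control blue, unpaired samples as points). The lines of control mice climb from day 0 for Col3a1, Col4a1 and Col4a2, and those of KO mice run in both directions.

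Col14a1 and Col5a3 had lower means on day 2 than on day 0 in KO livers, without passing the test. Col14a1 had 7.14, 6.88 and 7.59 on day 2 in KO mice 250, 254 and 258, against 8.13, 8.30 and 6.90 in the same mice on day 0, so it was lower on day 2 in mice 250 and 254 and higher in mouse 258. Over the groups the day 2 minus day 0 difference was -0.78 ± 0.30 (SE) with an unadjusted p of 0.0184 and a limma adjusted p of 0.665, beside -0.66 ± 0.35 in control livers (SE, limma adjusted p = 0.228). Col5a3 was lower on the later day in all 6 KO mice, by 0.34 to 2.16, and 5 of its 6 later values were under 4. Its day 0 values in mice 250 (3.19), 258 (3.86) and 337 (3.91) were under 4 too, so both readings of those mice were near background. The KO minus control differences of Col14a1 were 0.68 ± 0.35 on day 2 and 0.66 ± 0.35 on day 6 (SE), neither past the test, and its second probe set gave -0.01 on day 2.

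**Figure D5:**
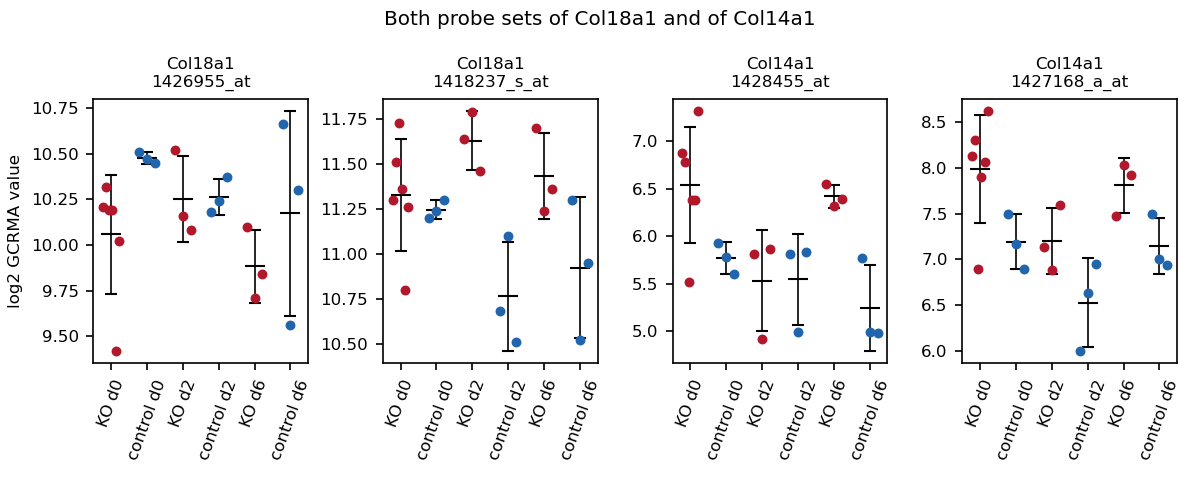
Log2 GCRMA values of both probe sets of Col18a1 and of Col14a1, with 1 dot per array (KO red, control blue) and bars for the group mean ± SD. For Col18a1 the KO dots of day 2 lie above the control dots only in the probe set that stood for the gene (11.46 to 11.79 in KO livers, 10.51 to 11.10 in control livers).

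Genes whose products fold, modify and crosslink collagen moved in part with the collagens. Of 31 such genes on the array 23 were tested, and on day 0 5 were higher in KO livers and 0 lower, against 6.79% and 2.87% of all tested genes. Serpinh1, the collagen chaperone HSP47, averaged 7.95 ± 0.48 in KO livers and 5.45 ± 0.41 in control livers (SD, n = 6 and 3; limma adjusted p = 0.000181). Pcolce, which enhances removal of the carboxyl propeptide of procollagens, averaged 7.93 ± 0.55 in KO livers and 5.76 ± 0.33 in control livers (limma adjusted p = 0.000290). Loxl1, a lysyl oxidase that crosslinks matrix proteins, was at least 3.35-fold higher in KO livers (limma adjusted p = 0.00193), Crtap, a subunit of the prolyl hydroxylation complex, 2.46-fold (0.00642), and Sparc, a collagen-binding matrix protein, 2.32-fold (0.0411). The call of Crtap was lost without control mouse 303 (0.0535) and that of Sparc without any 1 of the 3 control mice or of KO mice 254, 258, 312 and 337 (0.0526 to 0.137) or without the 3 arrays of high Gapdh difference (0.0571). On days 2 and 6, 0 of the 23 genes passed, with unadjusted p values under 0.05 for 6 and 5 of them (1784 and 944 of all 7320 genes).

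Of 17 matrix receptor and uptake genes on the array 11 were tested. On day 0 5 were higher in KO livers and 0 lower, against 6.79% and 2.87% of all tested genes. Ddr1, a receptor tyrosine kinase that binds collagen, passed on all 3 days on the probe set that stood for it. With the mean of its probe sets the differences were 0.74, 0.43 and 0.58 on days 0, 2 and 6, and the day 2 call was lost (limma adjusted p = 0.0905). It averaged 7.64 ± 0.54 in KO livers and 3.97 ± 1.23 in control livers on day 0, 8.05 ± 0.65 in KO and 5.81 ± 0.40 in control livers on day 2, and 7.93 ± 0.22 in KO and 5.13 ± 0.53 in control livers on day 6 (SD, n = 6 and 3 on day 0 and 3 each after). Limma adjusted p values for Ddr1 were 1.84e-05, 0.0168 and 0.00397 on days 0, 2 and 6, and the day 2 call was lost without KO mouse 254 (0.0883) or 258 (0.0610), or without the 3 arrays of high Gapdh difference (0.159). The others were the hyaluronan and collagen receptor Cd44 (2.48 log2 units), Cd93 (2.04) and the integrin chains Itgb1 (0.98) and Itgav (0.78), of which Itgb1 also passed on day 2 (1.37). The mean of all probe sets of Itgb1 gave 0.19 on day 0 (limma adjusted p = 0.414) and 0.475 on day 2 (0.0648), and that of Itgav 0.28 on day 0 (0.411). On day 0 the call of Cd44 was lost without control mouse 265 (0.113) or 303 (0.0725), and that of Cd93 without control mouse 263 (0.0648) or 265 (0.0918). Those of Itgb1 and Itgav were each lost without any 1 of the 3 control mice or of KO mice 250, 254, 258 and 337, and that of Itgav without KO mouse 332 too. On day 2 the call of Itgb1 was lost without KO mouse 254 or 258 or control mouse 263 (0.120, 0.0665 and 0.0689 in that order), or without the 3 arrays of high Gapdh difference (0.690). Neither list was chosen without knowledge of earlier results of these data.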

How the data were processed

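Total RNA from 21 liver samples of 12 mice was extracted with Trizol and labelled with a biotin label by a 3-prime IVT protocol, per the labels' protocols. The deposited values are log2 signals that the authors made with GCRMA, a background correction and probe set summary, per the submitters' processing notes. Neither its version nor any other step is known from the sources used here. The log2 scale was read from the range of the values, and no normalization was added.

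Gene names of the 22690 probe sets came from the platform annotation. Those with 1 symbol (20380) were used, and all 36 collagen genes matched RefSeq (GRCm38.p6) by Entrez ID. Genes with log2 above 4 in at least 3 arrays (7320 of 12393) were tested with limma 3.58.1 (R 4.3.3, lmFit and eBayes, two-sided) in 1 model of 6 groups with 15 residual degrees of freedom, with Benjamini-Hochberg adjustment over all 7320 genes at 0.05. The fit was tested on simulated data. Bounds set values under 4 to 4. The number of arrays limits the precision. A mouse number marks samples of the same animal, per the design text. Deviations of the 9 pairs correlated between -0.06 and 0.30 (median 0.12), and the mouse was tried as a random block (correlation 0.108) and as a fixed block. Other alternatives were the probe set choice, filter, normalization, eBayes options, array weights, the groups in the fit and each array left out.

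All collagen genes may be named, those past the test with values in every sample, together with Abcb4 and the partner genes past the test between the genotypes. Members and lists were chosen with earlier results of these data known. Each array is a separate mouse within its group.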

Additional observations from a re-analysis of the deposited data

Results flagged for a closer look

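In KO livers on day 0, the group of 6 mice, the highest sample stood far from the other 5 for 3 of the 15 tested collagen genes, and in each case it was mouse 258. Col1a1 was 9.90 in that mouse, and the next value was 7.03. Col3a1 was 12.27, and the next value was 10.81. Col5a1 was 7.15, and the next value was 5.51. Chance alone sets a sample apart in about 1 in 20 groups, and the 3 genes come from the same array. Without mouse 258 on day 0 the calls of Col1a1 and Col3a1 between the genotypes were kept, and Col5a1 did not pass with or without it.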

How the results depend on the processing

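The count of collagen genes called between KO and control livers was 9 on day 0 and lay between 8 and 11 when 1 of the 21 arrays was left out, between 1 and 8 on day 2 (6 in the full set) and between 2 and 4 on day 6 (3 in the full set). On day 2 array weights gave 2, a fit of only the groups compared gave 1 and leaving out the 3 arrays of high Gapdh difference gave 0. On day 6 array weights gave 5 and a fit of only the groups compared gave 1. For control livers on day 2 against day 0 (3 calls, 0 to 5 with 1 array left out) array weights gave 1, and only the groups compared, the mouse as a fixed replicate block and the set without the 3 arrays each gave 0. For control livers on day 6 against day 0 (1 call, 0 to 2 with 1 array left out) averaging the probe sets of a gene, no filter, only the groups compared and the fixed replicate block gave 0, array weights gave 3, and without the 3 arrays 2 were called. The day comparisons in KO livers and both interactions stayed at 0 with any 1 array left out. As a random replicate block the mouse changed 1 call, that of Col6a3 in control livers on day 2 (1.52, limma adjusted p = 0.0376). On day 0 the call of Col5a2 was lost with the mean of its probe sets (limma adjusted p = 0.0586) and without control mouse 265 (0.0565). Those of Col1a1, Col1a2 and Col3a1 were lost on their second probe sets.

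Signs turned for Col18a1, Col14a1 and Col3a1. Col18a1 on day 0 was -0.17 with the mean of its probe sets, -0.0567 with arrays centred on their medians, between -0.000667 (without KO mouse 258) and 0.185 with 1 array left out, and -0.42 on its other probe set, which gave -0.01 on day 2 and -0.29 on day 6. Col14a1 on day 2 was -0.0133 on its other probe set, and the day 2 interaction of Col3a1 was 0.53 on its second probe set. The cause was not tested.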

Other observations

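Among collagen genes that were not tested, Col15a1, a multiplexin of vascular basement membranes, was above 4 on 2 arrays, both of control livers after resection, at 5.30 in mouse 265 on day 2, the array with the Gapdh difference of 9.50, and 4.05 in mouse 393 on day 6. Its values on the 12 KO arrays did not exceed 3.87, and the other control values of day 2 were 3.15 and 3.58.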
